A study of Mus musculus with 8 samples.

Results

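Histone acetyltransferases place acetyl groups on lysines of histone tails, and bromodomain proteins bind the acetylated lysines and recruit the transcription machinery. The genes followed here are the acetyltransferase genes Kat2a, Kat2b, Kat5, Kat6a, Ep300, Crebbp and Ncoa3 and the bromodomain reader genes Brd2 and Brd3. A probe set, a group of short probes on the array for 1 transcript, was taken as a member when the platform annotation named it for 1 of these 9 genes alone. That gave 13 probe sets of 22626 on the array, for 7 of the 9 genes (of 12393 genes with a probe set named for them alone); Kat5 and Ep300 had no such probe set and were not analysed here.

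The cells were MCE301, a line of colonic epithelium from mice that carry a temperature-sensitive SV40 large T-antigen as a transgene. They received 2 mM sodium butyrate, an inhibitor of histone deacetylases, for 0, 6, 12 or 24 h, and each time has 2 arrays, 8 in all. The labels name no separate cultures behind the 2 arrays of each time, so p-values speak only of array-to-array spread, possibly technical. All groups are the 1 cell line and all later groups received the 1 dose; without untreated cells at 6, 12 and 24 h, butyrate and time in culture cannot be told apart.

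Acetyltransferases work in families. KAT2A (GCN5) and KAT2B (PCAF) are close paralogs that take turns as the catalytic subunit of the SAGA and ATAC coactivator complexes. CBP, the product of Crebbp, and p300 are large coactivators that bind many transcription factors, and KAT6A (MOZ) is the catalytic subunit of a complex with a BRPF scaffold. NCOA3 is a coactivator of nuclear receptors. BRD2 and BRD3 belong to the BET family, which binds acetylated histones through paired bromodomains. Butyrate blocks the removal of the marks that these enzymes write and these readers bind.

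Epithelial identity was checked on 13 marker genes, all of them above the median signal on every array, while 7 of 7 fibroblast and 4 of 4 endothelial markers never passed that median. Of 5 immune markers measured, 4 never passed it and Cd68 did, with mean signals of 424.4 at 0 h and 1080.1 at 24 h. Among 10 markers of differentiated colon epithelium, 4 (Krt20, Cdx2, Car2 and Cdh17) were above it on every array and 6, Vil1 and Cdx1 among them, never were. The mean signal of Krt20 went from 1377 at 0 h to 15293 at 24 h, whereas those of Cdx2 (484.8 to 284.3), Car2 (4963 to 3824) and Cdh17 (688 to 341.9) were lower at 24 h. The sum over the 10 went from 7692 to 19915, an increase that came from Krt20, and the part of these genes in the results was not tested. The arrays had been scaled to a common level, with medians of 140.1 to 152.4, and the 2 arrays of a time correlated at r = 0.975 to 0.982 over the 12443 probe sets kept (across probe sets, which are not independent).

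The sequences that end at the annotated starts of the KAT2 paralogs, whose called probe sets fell at the same times, are shown from the RefSeq table of promoters (GRCm38.p6, which held 7 of the 9 genes). That table gives 250 bases before each listed transcription start; only the bases upstream of the annotated gene are printed, 232 for Kat2a and 53 for Kat2b, each read along the gene. Capitals mark a match to TGANTCA, a binding motif of AP-1.

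Kat2a, chr11:100712486-100712717, minus strand: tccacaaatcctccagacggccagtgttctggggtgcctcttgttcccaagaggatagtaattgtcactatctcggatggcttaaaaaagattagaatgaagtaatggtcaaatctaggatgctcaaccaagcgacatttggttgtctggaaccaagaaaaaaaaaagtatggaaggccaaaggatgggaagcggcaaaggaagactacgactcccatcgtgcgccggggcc

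Kat2b, chr17:53566721-53566773, plus strand: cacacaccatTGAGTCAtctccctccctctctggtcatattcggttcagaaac

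Kat2b held TGANTCA once, at bases -43 to -37 from the annotated start. A match was also found in 1.33% of 53-base windows from all 32851 promoters. Kat2a held no match to TGANTCA in its longer stretch, whereas 6.39% of 232-base windows did. Each window was the part of its promoter farthest from the listed transcription start. The windows therefore need not end at a gene start, as the Kat2a and Kat2b stretches do. Their shares are not those of sequences next to gene starts. Neither stretch held TGCGCA (NRF1), CACGTG (the E-box), GGGCGG (the GC box), TGACG (the core of a cyclic AMP response element) or CCAAT on either strand; of 232-base windows, 5.70%, 5.41%, 30.1%, 16.1% and 32.4% did, and of 53-base windows 0.819%, 0.804%, 5.28%, 2.67% and 7.37%. These matches describe letters and show no binding.

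The falls of Kat2a and Kat2b at 12 h and 24 h were the clearest changes among the members. Crebbp, near the low end of the signals tested, was called lower at all 3 times, but every one of these calls rested on 1 array at 0 h, and 1 Brd3 probe set had a smaller fall. No member rose, although both Brd2 probe sets were higher on every array at 12 h and 24 h than at 0 h. Of the 13 member probe sets, 11 passed a filter on low signals and were tested in limma with all probe sets, on log2(signal + 32); a call is a Benjamini-Hochberg adjusted p under 0.05 over the 12443 probe sets kept. At 6 h, 1 of 11 was called lower, and 5.01% of all probe sets tested were. At 12 h it was 5 of 11, against 15.9% of all, and at 24 h again 5 of 11, against 22%. At both times these included Kat2a 1422972_s_at and Kat2a 1426783_at, which are of the same gene and not independent. None was called higher in limma at any time, where 6.68%, 16% and 22.1% of all probe sets were. At an unadjusted p under 0.05, 0 of 11 were higher at 6 h, 1 at 12 h and 0 at 24 h. Of all 7340 genes, 1 probe set each, 1174, 1676 and 2018 were higher at that unadjusted p. Without overlap between the arrays of the 2 times, 8 of the 11 were lower at 6 h (26.2% of all probe sets), 7 at 12 h (33.5%) and 7 at 24 h (35.3%), and 0, 2 and 2 were higher (28.2%, 34.8% and 37.6%). The median log2 change of the 11 was -0.21, -0.34 and -0.37 at the 3 times, beside 0.01, 0.02 and 0.03 over all probe sets. Crebbp passed the filter through both arrays at 0 h and 1 at 24 h, so it was bound to be lower at 6 h and 12 h. It is among the probe sets counted as lower without overlap at all 3 times. Over the other 10 the counts called lower were 0, 4 and 4, and the median log2 changes -0.21, -0.30 and -0.28. The counts of lower probe sets depended on single arrays. At 12 h they were smaller without any 1 array of 0 h or 12 h, and at 24 h without array 1 of 0 h. Fewer of all probe sets were also called lower in those fits, so the smaller counts are not particular to the members.

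**Figure D1:**
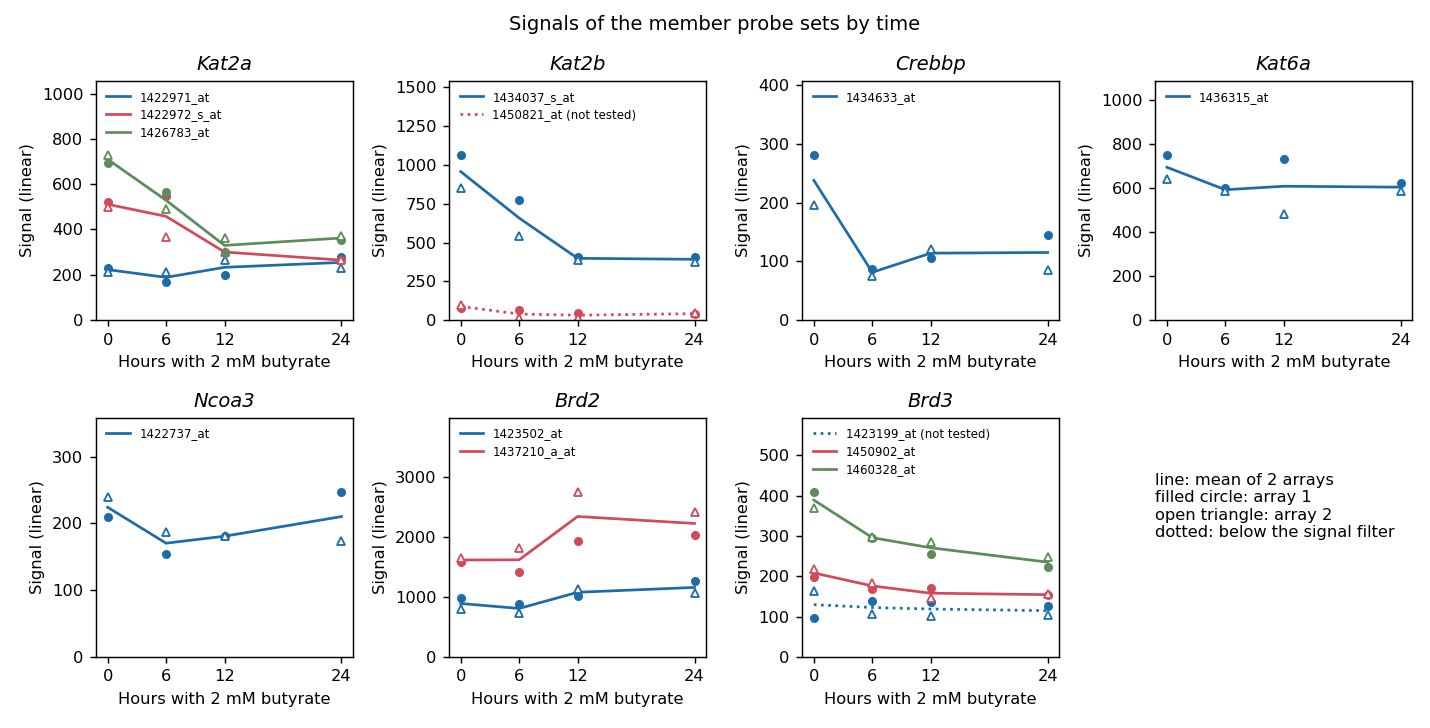
Linear signals (vertical axis) of the 13 member probe sets against hours with butyrate (horizontal axis); lines join the means of 2 arrays, filled circles are array 1, open triangles array 2, and dotted lines are probe sets below the signal filter. Kat2b 1434037_s_at drops from 852 and 1063.2 at 0 h to 374.1 and 409.8 at 24 h, while 1 of the 3 Kat2a probe sets stays between 166.5 and 280.2.

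Kat2b had the largest fall at 12 h and 24 h. Its probe set 1434037_s_at read 1063.2 and 852 at 0 h, 773.2 and 542.9 at 6 h, 406.2 and 390.7 at 12 h, and 409.8 and 374.1 at 24 h. Both arrays at each later time were below both arrays at 0 h, and the 12 h and 24 h arrays overlapped. The log2 change at 6 h was -0.53 ± 0.20 (standard error of the fit; adjusted p = 0.113), which limma did not call. It was called with the replicate number as a block (adjusted p = 0.0454), a fit that takes out what arrays of the same number share across times. At 12 h the log2 change was -1.19 ± 0.20 (adjusted p = 0.00175) and at 24 h -1.22 ± 0.20 (adjusted p = 0.000854), a 2.32-fold fall. Falls at least this large were seen for 2.89% of all probe sets at 12 h and 6.11% at 24 h.

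Most of the Kat2b decline had taken place by 12 h. Between 6 h and 12 h the log2 change was -0.66 ± 0.20, not called by itself (adjusted p = 0.111) and called with the replicate block (adjusted p = 0.0439). Between 12 h and 24 h it was -0.02, with a 95% interval of -0.46 to 0.42. The other Kat2b probe set, 1450821_at, did not pass the filter. It read 78.1 and 98 at 0 h and 14 to 64.2 on the 6 later arrays, so all of these were below the 0 h pair. In a fit with no filter its log2 changes were -0.85, -0.95 and -0.70 (adjusted p = 0.286, 0.137 and 0.223), on signals close to the constant of 32.

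Kat2a, the paralog of Kat2b, fell by 2 of its 3 probe sets. Probe set 1426783_at read 692.2 and 727.9 at 0 h, 565.9 and 491.9 at 6 h, 296.8 and 362.8 at 12 h, and 354.3 and 370.5 at 24 h. No later array of it reached the 0 h pair, and the 12 h and 24 h arrays overlapped. The log2 change was -0.41 ± 0.17 at 6 h (adjusted p = 0.148, not called), -1.04 ± 0.17 at 12 h (adjusted p = 0.00143) and -0.91 ± 0.17 at 24 h (adjusted p = 0.00168). The step from 6 h to 12 h was -0.64 ± 0.17 (adjusted p = 0.0743, not called; 0.0473 with the replicate block).

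The second Kat2a probe set, 1422972_s_at, followed the same course with a more uneven 6 h pair. It read 523.1 and 499.7 at 0 h, 549.7 and 366.2 at 6 h, 299.3 and 301.6 at 12 h, and 265.2 and 264.3 at 24 h. The 6 h arrays lay on either side of the 0 h pair, whereas all 12 h and 24 h arrays were below it. Its log2 change was -0.71 ± 0.19 at 12 h (adjusted p = 0.0188) and -0.87 ± 0.19 at 24 h (adjusted p = 0.00461). The 12 h call was lost without any 1 of the 0 h or 12 h arrays (adjusted p = 0.0701 to 0.0904) and with no filter (0.0648).

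The third Kat2a probe set did not share this course. Probe set 1422971_at read 231.3 and 214.4 at 0 h, 166.5 and 210.7 at 6 h, 199.4 and 266.5 at 12 h, and 280.2 and 229.2 at 24 h. Its arrays at 12 h and 24 h overlapped those at 0 h, and its log2 change at 24 h was 0.16, with a 95% interval of -0.26 to 0.59 (adjusted p = 0.518). That interval does not reach the falls of -0.87 and -0.91 of the other Kat2a probe sets. Over the 8 arrays it correlated with them at r = -0.59 and -0.33, while those correlated with each other at 0.91. The 3 probe sets are named for the same gene in the annotation, and which transcript each one reads was not tested.

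Kat2a 1426783_at and Kat2b 1434037_s_at moved in parallel, at r = 0.95 over the 8 arrays, which share the 4 times. The within-array difference of Kat2a minus Kat2b, on log2(signal + 32), was -0.60 and -0.22 at 0 h, -0.43 and -0.13 at 6 h, -0.41 and -0.10 at 12 h, and -0.19 and -0.01 at 24 h. Kat2a thus lost 0.30 less than Kat2b by 24 h. For 24 h against 0 h the exact permutation test (two-sided) cannot go below p = 0.333 with 2 arrays against 2. Over all 8 arrays and 4 times, an exact permutation test of the spread between times gave p = 0.562 (adjusted over the 2 paralog pairs 0.562). An exact permutation of the times only within each array number gave p = 0.0417 (adjusted 0.0417), the smallest its 24 arrangements allow. The call thus depended on the pairing of arrays by number. A suffix _s_at, as on Kat2b 1434037_s_at and Kat2a 1422972_s_at, marks probes shared by more than 1 transcript. Kat2a 1422972_s_at correlated with Kat2b 1434037_s_at at r = 0.96 over the 8 arrays, and with Kat2a 1426783_at at 0.91. Cross-reaction between paralogs was not tested.

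The genes whose course was most like that of Kat2b, among 7339 others by Pearson correlation over the 8 arrays, were Klhl1 (r = 0.991), the corepressor gene Ctbp1 (r = 0.988) and the sterol synthesis gene Cyp51 (r = 0.988). Klhl1 had mean signals of 158.3, 73.8, 7.85 and 6.75 at 0, 6, 12 and 24 h: it passed the filter through the 0 h arrays alone and was far below it from 12 h on. Mean signals of Ctbp1 were 3272, 2367, 1562 and 1599.

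Crebbp was the only member called at 6 h. Its probe set 1434633_at read 280.8 and 195.3 at 0 h, 87.4 and 75.3 at 6 h, 106.4 and 121.6 at 12 h, and 144.8 and 85.5 at 24 h. All 6 later arrays were below the 0 h pair, and both 12 h arrays were above both 6 h arrays. The log2 change at 6 h was -1.24 ± 0.23 (adjusted p = 0.00842), a size reached by 0.699% of all probe sets kept. Crebbp passed the filter through both 0 h arrays and 1 at 24 h, so a fall at 6 h and 12 h was bound to appear. That share is therefore no measure of how rare the fall was. The log2 change was -0.87 ± 0.23 at 12 h (adjusted p = 0.0159) and -0.89 ± 0.23 at 24 h (adjusted p = 0.01).

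The return of Crebbp between 6 h and 12 h was not called (log2 change 0.37 ± 0.23, adjusted p = 0.441). The 2 arrays at 0 h differed by more than those at 6 h or 12 h. Without array 1 of 0 h the calls were lost at all 3 times, with adjusted p-values of 0.0725, 0.125 and 0.0907. The 24 h call was also lost without array 2 of 24 h (0.0884) and the 12 h call without array 1 of 12 h (0.0798). With no filter the 6 h and 12 h calls were lost (0.0548 and 0.0619). Signals after 0 h were mostly below the filter value of 144.5.

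Kat6a and Ncoa3 were not called in any comparison. Kat6a, probe set 1436315_at, read 749.9 and 640.3 at 0 h, 598.9 and 586.9 at 6 h, 733.1 and 484.6 at 12 h, and 621.3 and 588 at 24 h. Both 24 h arrays were below the 0 h pair, while 1 array at 12 h lay within that pair's range and the other below it. The log2 change at 24 h was -0.19, with a 95% interval of -0.64 to 0.26 (adjusted p = 0.482), so a fall of the size seen for Kat2b lies outside it. Kat6b, the paralog of Kat6a and chosen after its values were seen, was called lower at 6 h, at 67.4 ± 5.02 against 214.1 ± 64.8 (SD, n = 2; log2 change -1.28, limma adjusted p = 0.00969). It was also called lower at 12 h, at 115.4 ± 13.6 (log2 change -0.72, limma adjusted p = 0.0476). Like Crebbp it passed the filter through both 0 h arrays and 1 at 24 h, so it was bound to be lower at 6 h and 12 h. At 24 h it was at 151.8 ± 58.2, which was not called.

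Ncoa3, probe set 1422737_at, read 209 and 239.1 at 0 h, 153.6 and 186.8 at 6 h, 180.9 and 180.4 at 12 h, and 247 and 173.1 at 24 h. The arrays at 6 h and 12 h were all below the 0 h pair, and those at 24 h spanned it. Its log2 changes were -0.34, -0.27 and -0.10 (adjusted p = 0.285, 0.317 and 0.717). The 95% interval at 24 h was -0.52 to 0.33.

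**Figure D2:**
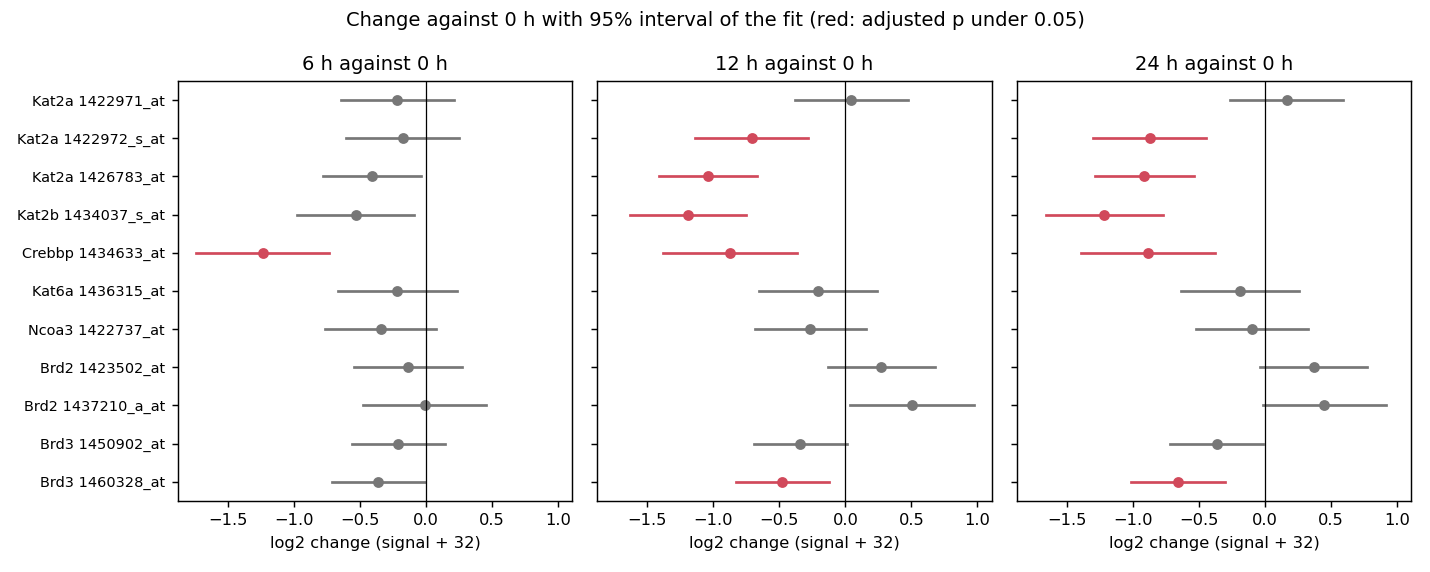
Log2 change of signal + 32 against 0 h (horizontal axis) for the 11 tested member probe sets (vertical axis), at 6, 12 and 24 h; points are fitted changes, lines 95% intervals, and red marks an adjusted p under 0.05. At 24 h the called probe sets lie between -1.22 and -0.66, and the highest point is the Brd2 probe set at 0.45.

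The BET genes Brd2 and Brd3 had changes of opposite sign at 12 h and 24 h, of which only that of Brd3 was called. Brd2, probe set 1437210_a_at, read 1573.3 and 1654.3 at 0 h, 1416.1 and 1817.2 at 6 h, 1929.4 and 2748.4 at 12 h, and 2026.4 and 2418.8 at 24 h. The 6 h arrays spanned the 0 h pair, and all 12 h and 24 h arrays were above it. The log2 change was -0.01 at 6 h (adjusted p = 0.988), 0.51 ± 0.21 at 12 h (adjusted p = 0.0934) and 0.45 ± 0.21 at 24 h (adjusted p = 0.109), and none was called. Array 2 exceeded array 1 at all 4 times, and with the replicate number as a block the changes were called (adjusted p = 0.0275 at 12 h and 0.0344 at 24 h). Without array 1 of 12 h the 12 h change was 0.76 and called (adjusted p = 0.0466).

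The other Brd2 probe set, 1423502_at, read 977.6 and 799.4 at 0 h, 879.6 and 731.7 at 6 h, 1017.5 and 1132.9 at 12 h, and 1255.2 and 1057.5 at 24 h. Here too every array at 12 h and 24 h was above the 0 h pair, by narrow margins. Its log2 changes at 12 h and 24 h were 0.27 and 0.37 (adjusted p = 0.286 and 0.127), with a 95% interval of -0.04 to 0.78 at 24 h, and the replicate block did not change these calls. At 24 h, 29.3% of all probe sets had a rise at least this large.

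Brd3 fell by 1 of its 2 tested probe sets. Probe set 1460328_at read 409.5 and 369.1 at 0 h, 295.5 and 296.5 at 6 h, 255.5 and 286 at 12 h, and 222.3 and 247.9 at 24 h. Each time's arrays were below all those of the time before; in these later steps, 24.2% of all probe sets were lower without overlap from 6 h to 12 h and 23.6% from 12 h to 24 h. The log2 change was -0.36 ± 0.16 at 6 h (adjusted p = 0.178, not called), -0.48 ± 0.16 at 12 h (adjusted p = 0.0431) and -0.66 ± 0.16 at 24 h (adjusted p = 0.00738), and neither step after 6 h was called. The 12 h call was lost when any 1 of the 8 arrays was left out (adjusted p = 0.0504 to 0.192), and also with no filter (0.104), with the larger pseudocount (0.0501), with a trend and robust prior (0.0539) and with only the 4 arrays compared (0.061). The 24 h call was lost without array 1 of 0 h (0.0534) or array 1 of 24 h (0.051).

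Probe set 1450902_at of Brd3 read 197.4 and 219.2 at 0 h, 168.9 and 183.1 at 6 h, 170.6 and 145.4 at 12 h, and 153.5 and 155.1 at 24 h. Every later array was below the 0 h pair. The log2 change at 24 h was -0.37 ± 0.16, which was not called (adjusted p = 0.088). The third Brd3 probe set, 1423199_at, did not pass the filter: it read 96.1 and 162.8 at 0 h and 100.1 to 138.9 later, inside the range of the 0 h pair.

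Within each array, Brd2 1437210_a_at minus Brd3 1460328_at was 1.86 and 2.07 at 0 h, 2.14 and 2.49 at 6 h, 2.77 and 3.13 at 12 h, and 3.02 and 3.13 at 24 h on the log2(signal + 32) scale. The 6 later arrays were all above the 0 h pair. The difference between the 2 genes' log2 changes at 24 h was 1.11, for which 2 arrays against 2 again allow no p below 0.333. Over all 8 arrays, the exact permutation test of the spread between the 4 times gave p = 0.019 (0.0381 adjusted over the 2 pairs), and within array number p = 0.0417 (adjusted 0.0417), the smallest possible there. Both tests were added after the values were seen.

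**Figure D3:**
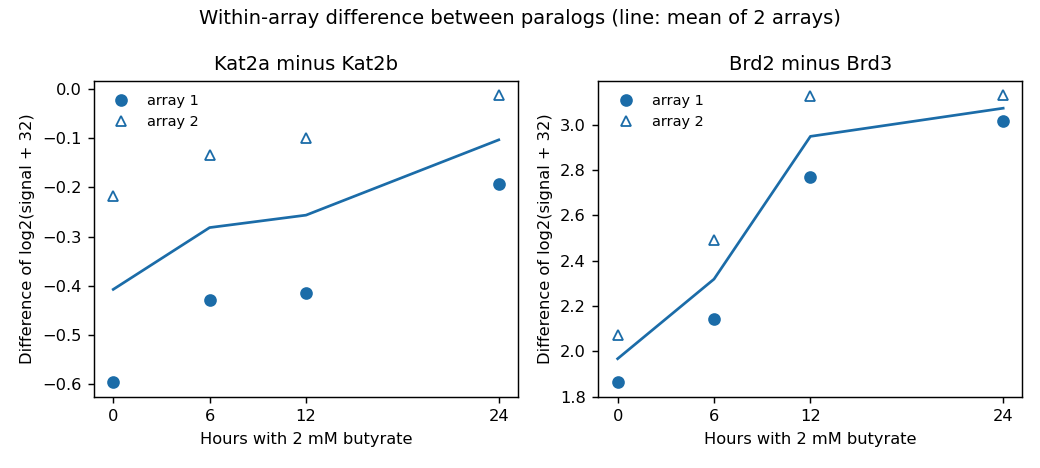
Within-array difference of log2(signal + 32), Kat2a 1426783_at minus Kat2b 1434037_s_at (left) and Brd2 1437210_a_at minus Brd3 1460328_at (right), against hours with butyrate; filled circles are array 1, open triangles array 2, and lines join the means. The KAT2 difference moves by 0.30 and the BET difference by 1.11 from 0 h to 24 h; the vertical axes have different ranges and do not start at 0.

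None of the 11 tested member probe sets was called between 12 h and 6 h in limma, or between 24 h and 12 h. Over all probe sets, 2.42% and 4.25% were called in those comparisons. At an unadjusted p under 0.05 there were 5 and 0 of the 11. Of all 7340 genes, 1 probe set each, 1437 and 1362 were under that unadjusted p. With the replicate block 2 were called lower at 12 h than at 6 h, the Kat2a and Kat2b probe sets given above. The deacetylase gene Hdac1, set beside the acetyltransferases for reference, rose from 906.9 and 876.5 at 0 h to 1845.1 and 1809.7 at 24 h (log2 change 1.01, limma adjusted p = 0.00154).

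The complexes around these enzymes and readers were followed through 9 gene lists. They hold 141 genes, of which 108 had a probe set of their own and 95 were tested, each by the brightest of its probe sets that passed the filter. At 24 h, 33 of the 95 fell and 8 rose, where 22.6% of all 7340 genes fell and 23.5% rose. At 12 h, 26 fell and 8 rose (16.6% and 17.2% of all genes), and at 6 h 11 fell and 1 rose (5.53% and 7.83%). Genes that passed the filter only through 1 of the times compared had to differ; without the 4 such genes, 31 of 91 fell and 7 rose at 24 h, against 22.4% and 22.7% of all genes selected the same way. At 12 h it was 23 and 8 of 92, and at 6 h 10 and 1 of 91. Single arrays moved these counts. The falls at 6 h and at 12 h were fewer without any 1 array of the 2 times compared. Fewer rose at 12 h without array 2 of 0 h or either 12 h array, and at 24 h without array 2 of 0 h. Over all probe sets, calls in the same direction were also fewer in each of those fits, so the smaller counts are not particular to the lists. With the replicate block 3 rose at 6 h and 13 at 12 h, where 1247 and 2442 of all 12443 probe sets did. The median log2 change of the 95 at 24 h was -0.18, against 0.04 over all genes. Named genes are those with the largest called changes at 24 h.

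Bromodomain genes other than the members fell most often: 12 of 19 tested fell at 24 h and 1 rose, with a median log2 change of -0.70. Among all genes, 22.6% fell and 23.5% rose. Without 2 genes that passed the filter only through 1 of the times compared, 10 of 17 fell and 1 rose, with a median of -0.62. Zmynd11, a reader of methylated histone H3 with a bromodomain, went from 1260.8 and 1075.5 at 0 h to 341 and 273.8 at 24 h (log2 change -1.82 ± 0.19, adjusted p = 5.43e-05). Baz1b, a subunit of the WICH chromatin remodeller, had a log2 change of -1.33, and Trim28, a corepressor of KRAB zinc finger proteins, of -1.20. Sp110, a nuclear body protein, was the 1 that rose (log2 change 0.56, adjusted p = 0.0197). That call was lost without array 2 of 0 h (0.127), without array 1 of 24 h (0.111) and with no filter (0.0556).

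Of 10 other acetyltransferase genes tested, 4 fell at 24 h and none rose in limma (0 at an unadjusted p under 0.05). Among all genes, 22.6% fell and 23.5% rose. Naa15, the auxiliary subunit of an enzyme that acetylates protein N-termini, fell from 2108 and 2089.2 to 902.3 and 818.6 (log2 change -1.26). Esco1, which acetylates cohesin, had a log2 change of -1.02. Hat1, which acetylates newly made histone H4, fell from 1509.8 and 1368.5 to 764.7 and 649.2 (adjusted p = 0.00101). Naa15 and Esco1 modify proteins other than histones.

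Among 18 tested subunits of the SAGA and ATAC complexes, the home of KAT2A and KAT2B, 5 fell and 2 rose at 24 h. These were 27.8% and 11.1%, against 22.6% and 23.5% of all genes. Zzz3, an ATAC subunit, fell from 2210.2 and 1832.7 to 1038 and 898.8 (log2 change -1.03), and Eny2, a subunit of the SAGA deubiquitinase module, from 931.9 and 925.6 to 407.1 and 495.5. Usp22, the ubiquitin protease of that module, rose from 432.7 and 381.6 to 948 and 1006.7 (log2 change 1.20 ± 0.16, adjusted p = 0.000294). Tada2b (log2 change -0.74), an adaptor that holds KAT2A or KAT2B in SAGA, lost its call without array 1 of 0 h (adjusted p = 0.146), array 1 of 24 h (0.0691) or array 2 of 24 h (0.0561) and with no filter (0.0561). Taf6l (0.60) lost its call without array 2 of 0 h (0.0657) or array 2 of 24 h (0.0521). The 5 falls were fewer without array 1 of 0 h or either 24 h array. The 2 rises were fewer without array 2 of 0 h or array 2 of 24 h. Calls in the same direction over all probe sets were also fewer in those fits.

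Of 13 tested subunits of the complex that holds KAT5 (TIP60), 6 fell and none rose at 24 h in limma (1 was higher at an unadjusted p under 0.05). The falls were fewer without array 2 of 24 h, as were those over all probe sets. With the replicate block, quantile normalization or the stricter filter 1 rose. In those settings 3176 of 12443, 2838 of 12443 and 2068 of 8746 probe sets rose. Over all genes, 22.6% fell and 23.5% rose at 24 h. Epc1, a scaffold of the KAT5 complex, fell early: 897.5 and 796.8 at 0 h, 330.2 and 295.4 at 6 h, 228.1 and 200.9 at 24 h (log2 change at 24 h -1.83 ± 0.16, adjusted p = 2.44e-05). Ruvbl1, an ATPase of the complex, had a log2 change of -1.24. Brd8, its bromodomain subunit, had one of -1.09 (adjusted p = 0.0216), lost without array 1 of 0 h (0.139), array 2 of 24 h (0.172) or with no filter (0.0759). Of the MOZ, MORF and HBO1 complex genes, 3 were tested and 1, the scaffold gene Brd1, fell (log2 change -0.70). Of 3 YEATS genes, whose products also bind acylated lysine, Mllt3 was called higher, at 214.2 and 213.1 against 96.8 and 88.7, but passed the filter only through those 24 h arrays. Yeats4 fell from 5960.4 and 5687.8 to 3781.6 and 3418.5. The 6 h arrays of Yeats4, at 2711.8 and 2543.6, were its lowest; with the replicate block 2 of the 3 fell.

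Of 12 tested partners of p300 and CBP, 5 fell and 1 rose at 24 h (2 rose with the replicate block). These were 41.7% and 8.33%, against 22.6% and 23.5% of all genes. Prmt1 and Carm1, arginine methyltransferases that act with these coactivators, had log2 changes of -1.77 and -1.19, and Set, a histone chaperone that masks histone tails from acetyltransferases, one of -1.32. Cited2, which binds p300 and CBP, rose from 2473.4 and 1934.2 to 4195.9 and 3601.1 (log2 change 0.82, adjusted p = 0.00713). Its call was lost without array 2 of 0 h (0.0655) or array 1 of 24 h (0.0516).

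The list of BET partners and elongation factors had 2 rises and 2 falls among 14 at 24 h and a median log2 change of 0.21. That is 14.3% each way, below the 23.5% of all genes that rose and the 22.6% that fell. The elongation factor genes Supt5 and Supt6 rose (log2 changes 0.93 and 0.89), while Larp7, which holds the 7SK RNA that restrains P-TEFb, fell from 714.4 and 892.9 to 279.7 and 242.9 (-1.51). Med12, a subunit of the Mediator kinase module, had a log2 change of -0.90. Of 8 tested genes that make, use or move acetyl-CoA, the donor of the acetyl group, 1 rose at 24 h and none fell in limma (0 at an unadjusted p under 0.05). The rise was 12.5% of the list, against 23.5% of all genes. The gene that rose was Acss2, which makes acetyl-CoA from acetate: 242 and 276.3 at 0 h, 343.9 and 433.9 at 6 h, 658.3 and 751.6 at 12 h, and 1123 and 1263.7 at 24 h. The arrays of each time were above all those of the time before (log2 change at 24 h 2.07 ± 0.18, adjusted p = 1.85e-05).

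Of the 27 genes named from the lists, 9 had other kept probe sets, 14 in all. All 14 had a log2 change of the same sign at 24 h and 12 were called; those not called were 1 of Naa15 (log2 change -0.27) and 1 of Brd8 (-0.31).

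**Figure D4:**
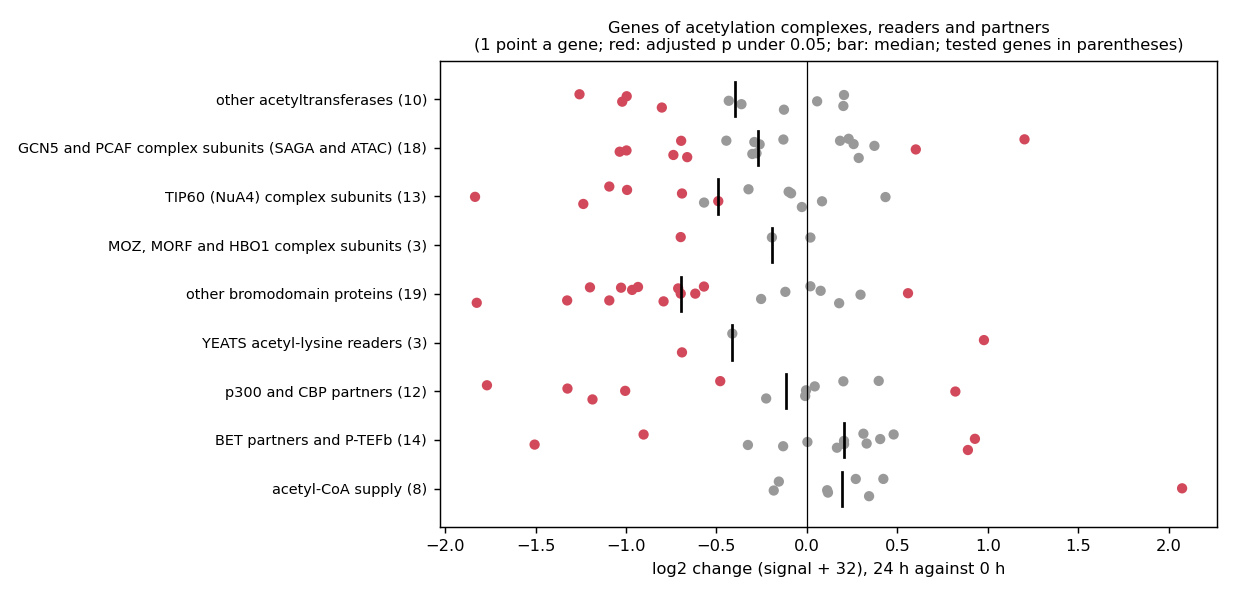
Log2 change of signal + 32 at 24 h against 0 h (horizontal axis) for the tested genes of 9 lists (vertical axis, number tested in parentheses; some genes are in more than 1 list); each point is a gene, red marks an adjusted p under 0.05, and black bars are medians. The median of the other bromodomain genes lies at -0.70 and Acss2 stands alone at 2.07; vertical scatter within a list carries no value.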

How the data were processed

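The authors deposited a table of linear intensity values (signals) for 22690 probe sets of the Affymetrix Mouse Expression Array 430A on 8 arrays, labelled with phycoerythrin per the labels. The software behind them was not given in the sources used here, and the table has no detection calls. Every array has nearly the same trimmed mean, so the intensities had been scaled; they were used as deposited. The number of arrays, 2 per time, limits the precision.

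After removal of 64 control probe sets, those above the overall median signal of 144.5 on at least 2 arrays were kept (12443), including probe sets with several genes or none. Log2(signal + 32) was fitted in limma 3.58.1 (R 4.3.3), with residual df 4 and prior df 6.25. Fold changes on this scale understate those of low signals. Errors are SDs for signals and standard errors for log2 changes. For gene lists the brightest kept probe set stood for its gene. Of 20380 probe sets with 1 gene, 20351 were found in RefSeq (GRCm38.p6) by Entrez identifier.

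The members and lists were chosen with earlier results of these data known. Named were every member, up to 3 rises and 3 falls per list at 24 h, the 3 genes most like the most changed member in each direction (none rose), and Hdac1. Kat6b falls outside this rule and was chosen after its values were seen. Gapdh, also fixed, has no probe set of its own here outside the controls. Ep300 and Crebbp, a planned paralog pair, could not be compared. The main fit did not pair the arrays. Replicate numbers were taken to pair them only in the replicate block and in the permutation within array number. Array 1 minus array 2, over all probe sets kept, had correlations of 0.146 to 0.391 in the 6 pairs of times. The numbers come from the sample titles, which do not say that arrays of the same number belong together. Reading them as pairs rests on these correlations. The fit was tested on simulated data. The alternatives were quantile normalization, other pseudocounts, other filters, 1 probe set per gene, another eBayes prior, fewer arrays, a replicate block and leaving out each array.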

Additional observations from a re-analysis of the deposited data

How the results depend on the processing

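Of 537 alternative values for the log2 changes of the 11 tested member probe sets, 499 kept direction and call, 26 lost a call, 4 gained one and 8 turned direction. Most of the 537 belong to changes that the main fit did not call, which had no call to lose. The 26 losses all fall on the called changes, so 26 of 537 understates how often a call was lost. None of the alternatives run ended the calls of Kat2b 1434037_s_at (-1.35 to -1.04 at 12 h, -1.37 to -1.06 at 24 h) or Kat2a 1426783_at (-1.17 to -0.88 and -0.95 to -0.77) at those times. The changes of direction came from leaving out 1 array, in values that were not called: Kat2a 1422971_at at 12 h (-0.14 to 0.23), Kat2a 1422972_s_at at 6 h (-0.45 to 0.10), Kat6a at 12 h (-0.49 to 0.078), Brd2 1423502_at at 6 h (-0.28 to 0.0052), Brd2 1437210_a_at at 6 h (-0.18 to 0.17) and Ncoa3 at 24 h (-0.32 to 0.13).

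Member probe sets called lower at 6 h were 0 with no filter (152 of all 22626 probe sets) and 2 with the replicate block (982 of 12443). With the stricter filter they were 0, but Crebbp, the 1 call at 6 h, did not pass it and was not tested. At 12 h 2 were called lower with no filter, where 1300 of all 22626 were. Counts of lower members were smaller in every fit without 1 array at 12 h, and in some at 6 h and 24 h. Without 1 array of the times compared, fewer of all probe sets were called lower too. Called higher with the replicate block were 1 at 12 h and 1 at 24 h, where 2442 and 3176 of all 12443 were. The larger Brd2 change without array 1 of 12 h is given above. Between 6 h and 12 h 1 was called with the stricter filter and 2 with the block, and the block changed no other member count by over 1.5 times. In that comparison 165 of all 8746 probe sets were higher and 244 lower with the stricter filter. With the block 320 and 405 of 12443 were. For the list genes, chosen for this check after the data were seen, the rises at 6 h were 2 with the larger pseudocount, 0 with no filter, 2 with a trend and robust prior, 3 with the block and 0 to 1 without 1 array. Falls at 6 h were 2 with no filter, 7 with only the 4 arrays compared and 3 to 10 without 1 array. Rises at 12 h were 3 with no filter, 13 with the block and 2 to 8 without 1 array, and falls at 12 h 16 with no filter and 13 to 26 without 1 array. Rises at 24 h were 5 to 9 without 1 array. The cause of these moves was not tested. With no filter more probe sets were tested, and without 1 array fewer arrays.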
